A study of Rattus norvegicus with 24 samples.

Results

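The genes described here build the contractile apparatus of muscle: myosins and their light chains, myosin binding proteins, actin, troponins, tropomyosins and tropomodulins, and the proteins of the Z-disc and M-band. They were chosen by symbol alone. A gene was a member if its symbol began with one of a fixed set of family stems (Myh, Myl, Myom, Myoz, Mybpc, Tnni, Tnnc, Tnnt, Tpm, Tcap, Ldb3, Pdlim, Actn, Actc1, Nebl, Ttn, Lmod, Tmod) or was Des or Ankrd1. The array carried 51 members, each on 1 probe, among 22517 probes. Of these, 39 passed a filter on dim probes and were tested among 10391 genes, and 12 did not pass it. Members whose mean log2 signal was at or above that of Myh7 were set apart, which gave 7.

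Each array measured total RNA from the left ventricle of 1 male Wistar rat of 300 to 350 g. Heart failure was brought about by tying off the left main coronary artery, control rats underwent a sham operation, and from then on rats ate either standard chow or a chow high in saturated fat. In the fat chow, fat supplied 60% of the calories, and its main fatty acids were palmitic (25%), stearic (33%) and oleic (33%) acid. The 4 groups of 6 rats were sham on chow, sham on saturated fat, ligated on chow and ligated on saturated fat. Which zone of the ventricle was sampled, whether scar was included and how long the rats were fed are not given in the sources used here.

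In a sarcomere, myosin heads of the thick filament pull on actin of the thin filament. Troponin and tropomyosin gate that contact according to calcium, the Z-disc anchors the thin filaments, and the M-band cross-links the thick ones. The adult rat ventricle uses mainly the fast alpha heavy chain (Myh6), and a shift towards the slower beta heavy chain (Myh7) is a known feature of the overloaded and failing rodent heart. Ventricle is not made of cardiomyocytes alone, and in whole tissue a change in the number of cells of a type and a change in RNA per cell cannot be told apart.

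The defining markers of cardiomyocytes given for these genes, Myh6, Myh7 and Tnnt2, were detected on 24 of 24 arrays. Arrays detected 8884 to 10475 probes, and correlated within groups at 0.969 to 0.992. They fell into 12 arrays of high background (143.64 to 160.67) and 12 of low background (81.618 to 92.95), read from the values because the files name no chip or date. Of the high-background arrays 5 came from sham rats (2 on chow, 3 on saturated fat) and 7 from ligated rats (2 on chow, 5 on saturated fat). Between these batches 20.8% of all genes differed, against 2 of 39 members (Nebl and Tnni3).

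After ligation, 3 members changed over both diets. Tmod4, a tropomodulin that caps the pointed ends of thin filaments in skeletal muscle, fell. Mybpc2, the fast skeletal form of myosin binding protein C, rose, and so did Pdlim7, a PDZ-LIM adaptor that binds the Z-disc. That is 3 of 39 tested members, beside 3.14% of all 10391 genes called in the same comparison. By a limma fit on normalized log2 intensity, with adjusted p under 0.05 over all genes, 25 of 39 members lay higher after ligation, with a median difference of 0.0623, against 46.1% of all genes and a median of -0.0119. With each array scaled to its median in place of quantile normalization, 21 of 39 lay higher and 0 were called. Of all genes 49% lay higher under that scaling, with a median of -0.00294. The share of all genes called under it is not given here. The 0 is therefore not read as a result about the members.

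The windows around the annotated starts of Mybpc2 and Pdlim7 are shown because these are the members that passed the test in the upward direction. Windows run from 250 bases before the start to 50 after it, from RefSeq on GRCr8, and read 5′ to 3′ on the gene's own strand. Mybpc2 lies at chr1:104154052-104154351 on the minus strand and Pdlim7 at chr17:9129558-9129857 on the plus strand. Capitals mark matches on either strand to 4 motifs: the E-box CANNTG, the M-CAT element CATTCC, the TATA box TATAAA and the GC box GGGCGG, and to the CArG box and the MEF2 site.
Mybpc2: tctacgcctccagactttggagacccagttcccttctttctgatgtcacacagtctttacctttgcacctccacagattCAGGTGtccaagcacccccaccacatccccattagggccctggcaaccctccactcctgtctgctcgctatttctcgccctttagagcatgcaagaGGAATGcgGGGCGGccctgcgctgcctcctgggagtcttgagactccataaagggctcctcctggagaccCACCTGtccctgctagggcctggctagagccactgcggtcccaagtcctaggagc
Pdlim7: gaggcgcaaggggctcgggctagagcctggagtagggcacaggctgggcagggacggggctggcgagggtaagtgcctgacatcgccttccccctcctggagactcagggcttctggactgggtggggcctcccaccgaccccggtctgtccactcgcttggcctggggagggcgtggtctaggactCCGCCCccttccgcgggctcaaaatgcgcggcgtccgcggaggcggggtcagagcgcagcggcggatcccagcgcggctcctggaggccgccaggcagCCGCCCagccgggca
Mybpc2 holds 2 E-boxes, 1 M-CAT element and 1 GC box, and Pdlim7 holds 2 GC boxes. No 2 of these matches overlap, and neither window holds a match to the TATA box, CArG box or MEF2 site. Of 33469 windows of the same length, 72.1% hold an E-box, 14.2% an M-CAT element and 33.1% a GC box, so such matches are common. Windows were found for 42 members, of which 34 hold an E-box, 10 an M-CAT element, 7 a MEF2 site (3.29% of all windows) and 4 a CArG box (1.64% of all windows). A member was counted if any of its windows held the motif, whereas the percentages count single windows. These are unlike measures, so no enrichment is read from them.

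Tmod4 gave log2 intensities of 9.18, 9.49 and 9.89 (lowest, median and highest) in sham chow hearts and 9.08, 9.47 and 9.76 in sham fat hearts. In ligated hearts the same 3 values were 8.33, 9.08 and 9.46 on chow and 8.30, 8.61 and 9.23 on saturated fat. All 12 ligated hearts lay below the sham mean, and 8 of 12 lay below every sham heart, though the groups overlapped. The difference over both diets was -0.65 (SE 0.13, n = 12 against 12, limma adjusted p = 0.00423). On saturated fat it was -0.77 (SE 0.18, adjusted p = 0.0419), and Tmod4 was the member called there, 1 of 39 beside 0.885% of all genes. On chow the difference was -0.53 (SE 0.18, adjusted p = 0.234), with 4 of 6 ligated hearts below every sham heart. The difference between the diets' ligation effects was -0.24 (SE 0.26, adjusted p = 0.914). Within the high-background arrays the value over both diets was -0.76 (SE 0.16, adjusted p = 0.121), and within the low-background arrays -0.73 (SE 0.23, adjusted p = 0.232). Leaving out any 1 animal kept the call over both diets (adjusted p 0.00198 to 0.00996). The call on saturated fat was lost with 11 of 24 animals left out in turn, with the background batch in the fit (-0.80, adjusted p = 0.0576) and with an index of circadian clock genes as a covariate (adjusted p = 0.138). Median scaling ended the call over both diets (adjusted p = 0.131) with a difference of about the same size and a larger error (-0.62, SE 0.18). Tmod1, the tropomodulin of cardiac muscle, differed by 0.11 after ligation over both diets (adjusted p = 0.551).

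Mybpc2 gave 6.94, 7.33 and 8.17 (lowest, median and highest) in sham chow hearts and 6.91, 7.30 and 7.59 in sham fat hearts. In ligated hearts it gave 7.29, 8.21 and 8.68 on chow and 7.61, 7.94 and 8.75 on saturated fat. On saturated fat the groups did not overlap, since the lowest ligated heart read 7.61 and the highest sham heart 7.59. On chow they overlapped through sham animal 15 at 8.17 and ligated animal 21 at 7.29. The difference over both diets was 0.76 (SE 0.16, limma adjusted p = 0.00663), with 11 of 12 ligated hearts above the sham mean. By diet it was 0.76 on chow (SE 0.22, adjusted p = 0.148) and 0.75 on saturated fat (SE 0.22, adjusted p = 0.131). These fell to 0.25 on chow within the high-background arrays and to 0.38 on saturated fat within the low-background arrays (1 ligated heart). With array weights the value on saturated fat was 0.93 and passed (adjusted p = 0.0127). No member passed on chow, where 0.472% of all genes did. At an unadjusted p under 0.05, 3 members were higher and 3 lower there, beside 10.4% of all genes in either direction. The chow difference of Mybpc2 stayed uncalled with 22 of 24 animals left out in turn (limma adjusted p up to 0.355). Without sham animal 15 it was 0.92 (adjusted p = 0.0473), and without ligated animal 21 it was 0.93 (adjusted p = 0.0287). The same 2 animals were also the highest sham and the lowest ligated chow heart for Nppa, at 12.78 and 12.14, and for Acta1, at 15.07 and 14.25. Within the high-background arrays the value over both diets was 0.53 (SE 0.21, adjusted p = 0.58), and within the low-background arrays 0.70 (SE 0.25, adjusted p = 0.326). Under median scaling the call over both diets was lost (adjusted p = 0.0961), with a difference of 0.77 and a larger error (SE 0.21). The Mybpc2 probe was dim, at rank 5695 among all probes, though it was detected on 24 arrays. On low-background arrays its signal was 151 to 171 in sham chow and 145 to 313 in ligated chow hearts. The background of those arrays was 81.618 to 92.95. Mybpc3, the cardiac form, lay between 13.56 and 14.15 in all 24 hearts and differed by -0.09 (adjusted p = 0.541).

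Pdlim7 gave 9.68, 9.99 and 10.26 in sham chow hearts and 9.58, 9.88 and 10.15 in sham fat hearts. Ligated hearts gave 10.15, 10.28 and 10.72 on chow and 9.97, 10.17 and 10.85 on saturated fat. All 12 ligated hearts lay above the sham mean and 5 of 12 lay above every sham heart, so the groups overlapped. The difference over both diets was 0.36 (SE 0.099, limma adjusted p = 0.0466), and it was close to that on each diet (0.35 on chow and 0.36 on saturated fat, adjusted p = 0.341 and 0.278). It was 0.33 (SE 0.17, adjusted p = 0.714) within the high-background arrays and 0.28 (SE 0.15, adjusted p = 0.586) within the low-background arrays. The call was lost when any of 16 of the 24 animals was left out (adjusted p 0.0319 to 0.0929 over the 24) with the batch in the fit (0.35, adjusted p = 0.0569), without the filter on dim probes (adjusted p = 0.0749) and under median scaling (0.39, SE 0.16, adjusted p = 0.478).

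**Figure D1:**
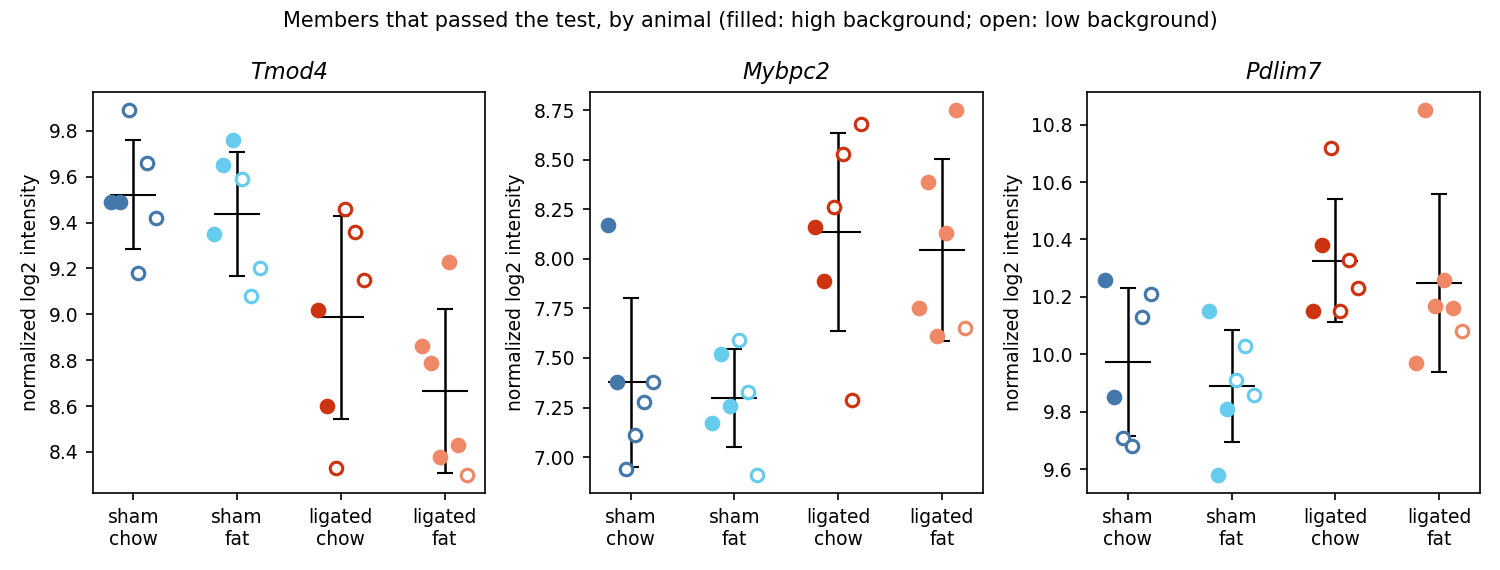
Normalized log2 intensity of Tmod4, Mybpc2 and Pdlim7 in each rat by group (6 rats a group), with filled points for high-background and open points for low-background arrays; the bar and whiskers are the group mean ± SD. Ligated hearts lie lower for Tmod4 and higher for Mybpc2 and Pdlim7, with overlap of the groups in each panel.

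Among the thick filament members, with which the light chain kinase Mylk2 was grouped, 6 were tested. Over both diets 0 of these were called in limma's fit, beside 3.14% of all genes. At an unadjusted p under 0.05 there was 1 (Myh7), beside 15.5% of all genes in either direction. The 2 ventricular heavy chains and the essential light chain Myl3 were among the 7 members set apart at the top of the intensity scale, and their values need that context. Mean log2 signal as deposited was 15.84 for Tnnt2, 15.77 for Ankrd1, 15.74 for Myl3, 15.71 for Tnni3, 15.70 for Tpm1, 15.70 for Myh6 and 15.59 for Myh7. Just below the mark stood Myoz2 at 15.34 and Des at 15.31. The same 7 were set apart on the normalized scale. A probe's brightness also depends on its sequence, so this order is not one of transcript abundance.

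On the high-background arrays each of the 7 read between 83.2% and 100% of the array's highest signal. Median signal on high-background arrays over that on low-background arrays was 1.41 to 1.73 for the 7, with a median of 1.55. It was 2.30 at the median for the 32 other tested members and 2.23 for all genes. The residual SD between rats of a group was 0.101 log2 units at the median for the 7, against 0.266 for the other members and 0.236 for all genes. At the median the 7 thus varied less than other members did, but a low spread was not particular to them. Residual SD was 0.046 to 0.144 for the 7, 0.0985 for Myoz2, 0.126 for Des, 0.119 for Actn2 and 0.13 for Mybpc3. Mybpc3 read only 24.1% to 40.1% of the highest signal on high-background arrays. The 7 were set apart by their high mean signal, so their place near the top of the range follows from that choice.

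**Figure D2:**
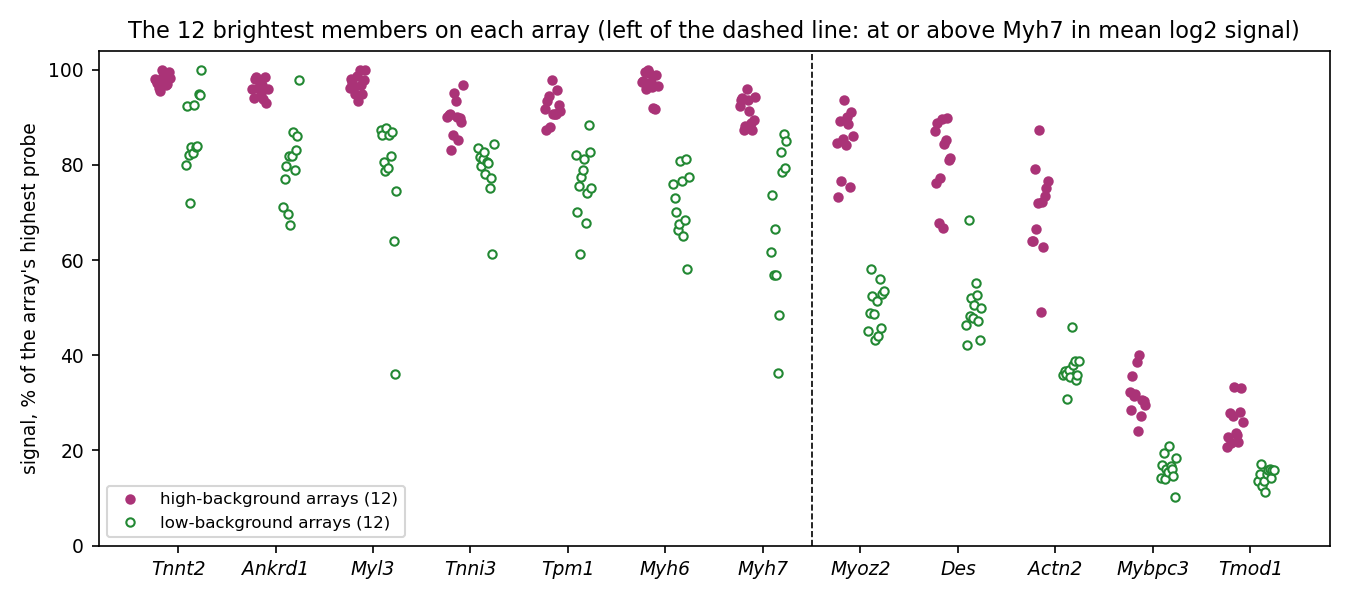
Signal of the 12 brightest members as a percentage of the highest probe on the same array, with 1 point per array. On high-background arrays the 7 members left of the dashed line sit at 83.2% to 100%, while on low-background arrays Myh7 spreads from 36.3% to 86.5%.

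Myh7, the slow beta heavy chain, was therefore read by batch. On low-background arrays its signal was 31017, 36577, 38431 and 40878 in the 4 sham chow hearts and 18957, 28419 and 34748 in the 3 sham fat hearts. It was 43189, 45196, 46631 and 50097 in the 4 ligated chow hearts and 43618 in the 1 ligated fat heart. All 5 ligated hearts were above all 7 sham hearts. On high-background arrays the 5 sham hearts read 62556 to 68702 and the 7 ligated hearts 62195 to 69049, with full overlap. In the fit over all arrays the difference after ligation was 0.14 (SE 0.066, limma adjusted p = 0.296). Within low-background arrays it was 0.35 (SE 0.11, adjusted p = 0.253), and within high-background arrays -0.0046 (SE 0.084, adjusted p = 0.997). None of these passed the test.

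Myh6, the fast alpha heavy chain, gave a signal on low-background arrays of 38207 to 45124 in sham chow, 41322 to 45024 in sham fat and 33122 to 40626 in ligated chow hearts, with 39742 in the ligated fat heart. Those ranges overlap, and the difference over both diets was -0.032 (SE 0.05, adjusted p = 0.845). Under median scaling it was -0.18 (unadjusted p = 0.0161, adjusted p = 0.446). Setting Myh7 over Myh6 compares 2 probes within each array. On low-background arrays the ratio was 0.811, 0.812, 1.0 and 1.01 in sham chow hearts, and 0.449, 0.631 and 0.841 in sham fat hearts. It was 1.06, 1.15, 1.27 and 1.36 in ligated chow hearts and 1.10 in the ligated fat heart, so every ligated heart lay above every sham heart. The log2 ratio was higher after ligation by 0.62 as a mean over the diets (exact permutation test within diet, two-sided, p = 0.0143). That mean weighs the diets equally, and its saturated fat difference of 0.82 rests on 1 ligated and 3 sham hearts. On chow alone the log2 ratio was higher by 0.42 (exact p = 0.0286, the smallest that 4 against 4 allows). Adjusted over the 6 ratio tests computed, both were 0.0857, and neither passed. On high-background arrays the ratio was 0.882 to 0.958 in sham and 0.905 to 0.975 in ligated hearts. Both probes were near the top of the scale there, Myh6 at 91.7% to 100% and Myh7 at 87.3% to 95.9% of the highest signal. No difference is read from those arrays, and whether the top of the scale held down the ratio was not tested. The ratio and its tests were chosen after the values were seen, and a ratio shows unequal signal, not which probe moved.

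**Figure D3:**
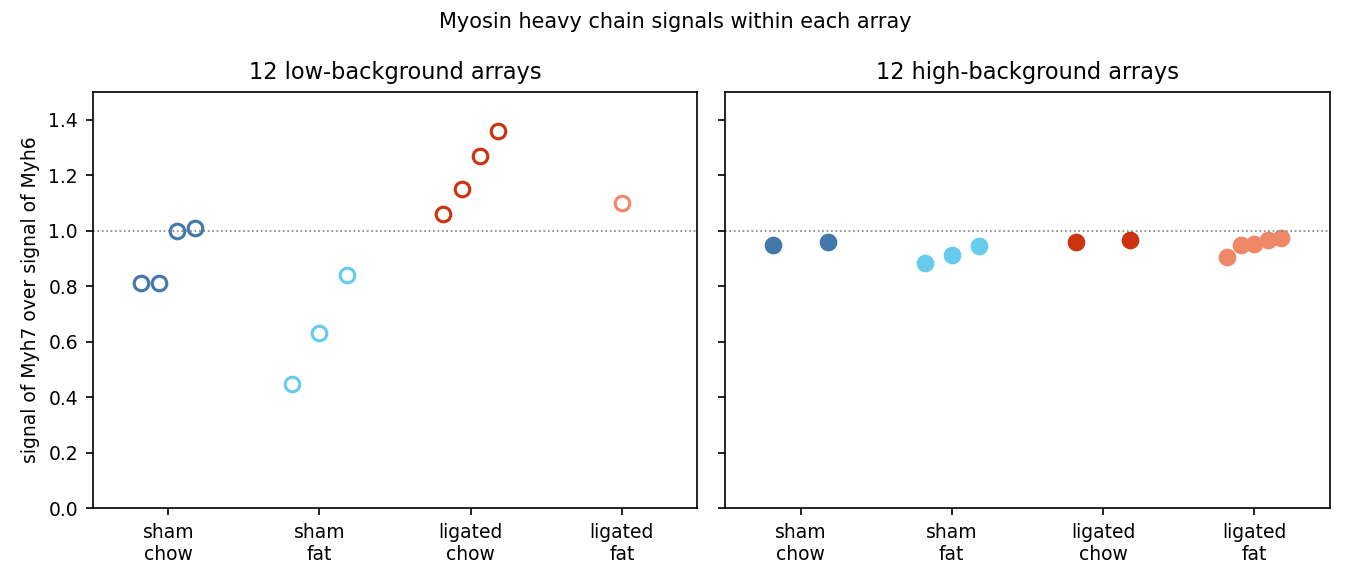
Signal of Myh7 divided by signal of Myh6 on the same array, by group, for low-background arrays (left) and high-background arrays (right); each point is 1 rat. On the left the 5 ligated hearts lie at 1.06 to 1.36 and the 7 sham hearts at 0.449 to 1.01; on the right all values lie between 0.882 and 0.975.

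Myl3, the ventricular essential light chain, read 43996 to 51792 in sham chow hearts on low-background arrays. In the 4 ligated chow hearts there it read 20564, 31966, 49567 and 51606, and in the ligated fat heart 38273. Sham fat hearts on these arrays read 41424 to 53682. Thus 2 ligated chow hearts were far below every sham heart there, and the ligated fat heart was also below them all. The other 2 ligated chow hearts were within the sham range. The difference on chow was -0.14 (adjusted p = 0.563), and it missed the test. Over both diets Myl3 differed by -0.05, and by -0.32 under median scaling (unadjusted p = 0.00805, adjusted p = 0.305). Myl7, the regulatory light chain of atrial muscle, was the most variable member, with a residual SD of 1.87 log2 units. It gave 6.36, 9.57 and 11.05 in sham chow and 9.69, 10 and 11.95 in sham fat hearts, then 7.63, 10.17 and 13.87 in ligated chow and 8.40, 11.05 and 13.48 in ligated fat hearts. The groups overlapped widely, and its difference of 1.05 after ligation (SE 0.69, adjusted p = 0.521) was smaller than that spread. Nppa, the natriuretic peptide gene of atrium and stressed ventricle, rose by 2.88 (SE 0.31, adjusted p = 4.37e-06). Sham animal 15 had the lowest Myl7 (6.36) and the highest sham Nppa (12.78). The other atrial markers tested, Gja5, Nr2f2 and Dkk3, differed by 0.21, 0.046 and 0.32 (adjusted p 0.386, 0.924 and 0.14), and the part of atrial tissue in the spread of Myl7 was not tested.

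**Figure D4:**
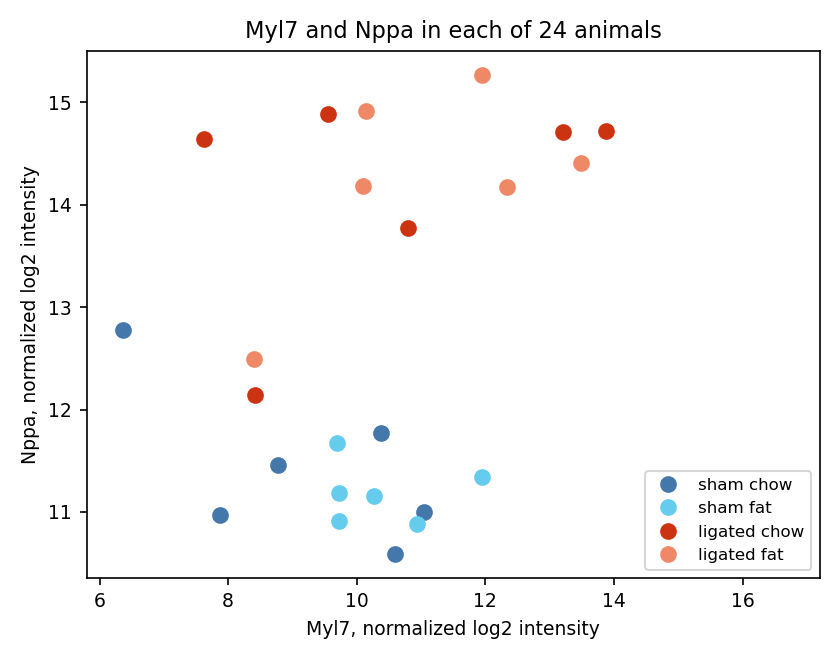
Normalized log2 intensity of Myl7 (horizontal) against Nppa (vertical) in each of 24 rats, coloured by group. Nppa separates most ligated from sham hearts, while Myl7 spans 6.36 to 13.87 with the groups mixed along it.

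Thin filament members numbered 13 tested, of which Tmod4 was called lower and 0 were called higher after ligation over both diets. Beside them 3.14% of all genes were called in either direction. The cardiac troponins were near the top of the scale. Tnnt2, which ties troponin to tropomyosin, lay between 15.76 and 15.97 in all 24 hearts, and differed by 0.05 (adjusted p = 0.676), or by -0.11 under median scaling (adjusted p = 0.894). Tnni3, the inhibitory subunit of the adult heart, lay between 15.41 and 15.91 and differed by -0.04 (adjusted p = 0.829), or by -0.21 under median scaling (adjusted p = 0.528). Tpm1, the main cardiac tropomyosin, differed by -0.0059 (adjusted p = 0.981), or by -0.13 under median scaling (adjusted p = 0.788). Actc1, the alpha-actin of heart, gave medians of 8.57 in sham chow, 8.65 in sham fat, 8.78 in ligated chow and 8.69 in ligated fat hearts. It differed by 0.15 (SE 0.10, adjusted p = 0.525). The probe ranked 4481 among all probes, a low place for the main actin of adult heart. Whether it reads that actin well is therefore in doubt. Nebl, nebulette of the Z-disc end of the thin filament, differed by -0.17 (adjusted p = 0.538). It differed between the array batches by 0.48 (adjusted p = 0.000276), so its values move with the batch.

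The Z-disc members were 8 tested, with 1 called (Pdlim7) and a median difference of 0.126. Of all genes 3.14% were called, with a median of -0.0119. All 8 lay higher after ligation on quantile-normalized values, where 46.1% of all genes did. Under median scaling 4 of 8 lay higher, beside 49% of all genes. There Myoz2, Actn2, Des and Ankrd1 turned to -0.03, -0.03, -0.08 and -0.07. Pdlim1, a PDZ-LIM protein that binds alpha-actinin, gave medians of 9.14 in sham chow, 8.85 in sham fat, 9.28 in ligated chow and 9.36 in ligated fat hearts. On saturated fat 5 of 6 ligated hearts lay above every sham heart, with animal 25 (8.75) below the sham mean. Its difference over both diets was 0.36 (SE 0.11, adjusted p = 0.0708) and on saturated fat 0.56 (SE 0.15, adjusted p = 0.0894), and neither passed. Both stayed uncalled with 23 of 24 animals left out in turn (limma adjusted p up to 0.131 and 0.201). Only without animal 25 did they pass, at 0.43 (adjusted p = 0.014) and 0.69 (adjusted p = 0.0167). Actn4, a nonmuscle alpha-actinin that the rule takes in by its name, differed by 0.24 (SE 0.11, adjusted p = 0.275). Pdlim3, another PDZ-LIM partner of alpha-actinin, differed by 0.16 (adjusted p = 0.482). Actn2, the sarcomeric alpha-actinin itself, Des, the intermediate filament protein desmin, and Myoz2, a calcineurin-binding Z-disc protein, differed by 0.02, 0.02 and 0.09 (adjusted p 0.924, 0.935 and 0.449). Ankrd1, a stretch-responsive ankyrin repeat protein, differed by 0.01 (adjusted p = 0.979), but it was set apart and read 93% to 98.5% of the highest signal on high-background arrays.

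The M-band and titin members were 4 tested, with 1 higher, 0 called by limma and a median difference of -0.171. Of all genes 46.1% lay higher and 3.14% were called, with a median of -0.0119. At an unadjusted p under 0.05, 2 of the 4 members were lower, beside 15.5% of all genes in either direction. Myom1, the myomesin that links thick filaments at the M-band, gave 10.86, 11.02 and 11.15 in sham chow hearts and 10.55, 10.77 and 10.84 in ligated chow hearts, with no overlap. It gave 10.75, 10.87 and 11.23 in sham fat hearts and 10.61, 10.80 and 11.12 in ligated fat hearts, which overlapped. The difference was -0.27 on chow (SE 0.095, adjusted p = 0.251) and -0.084 on saturated fat (SE 0.095, adjusted p = 0.776). The test of the difference between them gave 0.18 (SE 0.13, adjusted p = 0.895). Myom3, another myomesin, gave medians of 7.59 in sham chow, 7.14 in sham fat, 7.07 in ligated chow and 7.03 in ligated fat hearts, with overlap on each diet. It differed by -0.39 over both diets (SE 0.17, adjusted p = 0.257), by -0.83 within the low-background arrays (adjusted p = 0.102) and by -0.088 within the high-background arrays (adjusted p = 0.986). Myom2, the M-protein, differed by 0.17 over both diets (adjusted p = 0.478), and Ttn, the giant spring of the sarcomere, by -0.16 (adjusted p = 0.638). Of 3 myosin binding protein C genes 2 lay higher, of which Mybpc2 was called, beside the same 46.1% and 3.14% of all genes. Against the same shares, 3 of 5 nonmuscle and smooth muscle myosin genes lay higher (4 under median scaling) and 0 were called. Beside the same 15.5% of all genes, 1 of them was higher at an unadjusted p under 0.05. That was Myl9, the regulatory light chain of smooth muscle, at 0.42 over both diets (SE 0.15, adjusted p = 0.145). Its medians were 6.77 and 6.55 in sham hearts on chow and saturated fat, and 7.17 and 7.07 in ligated hearts.

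**Figure D5:**
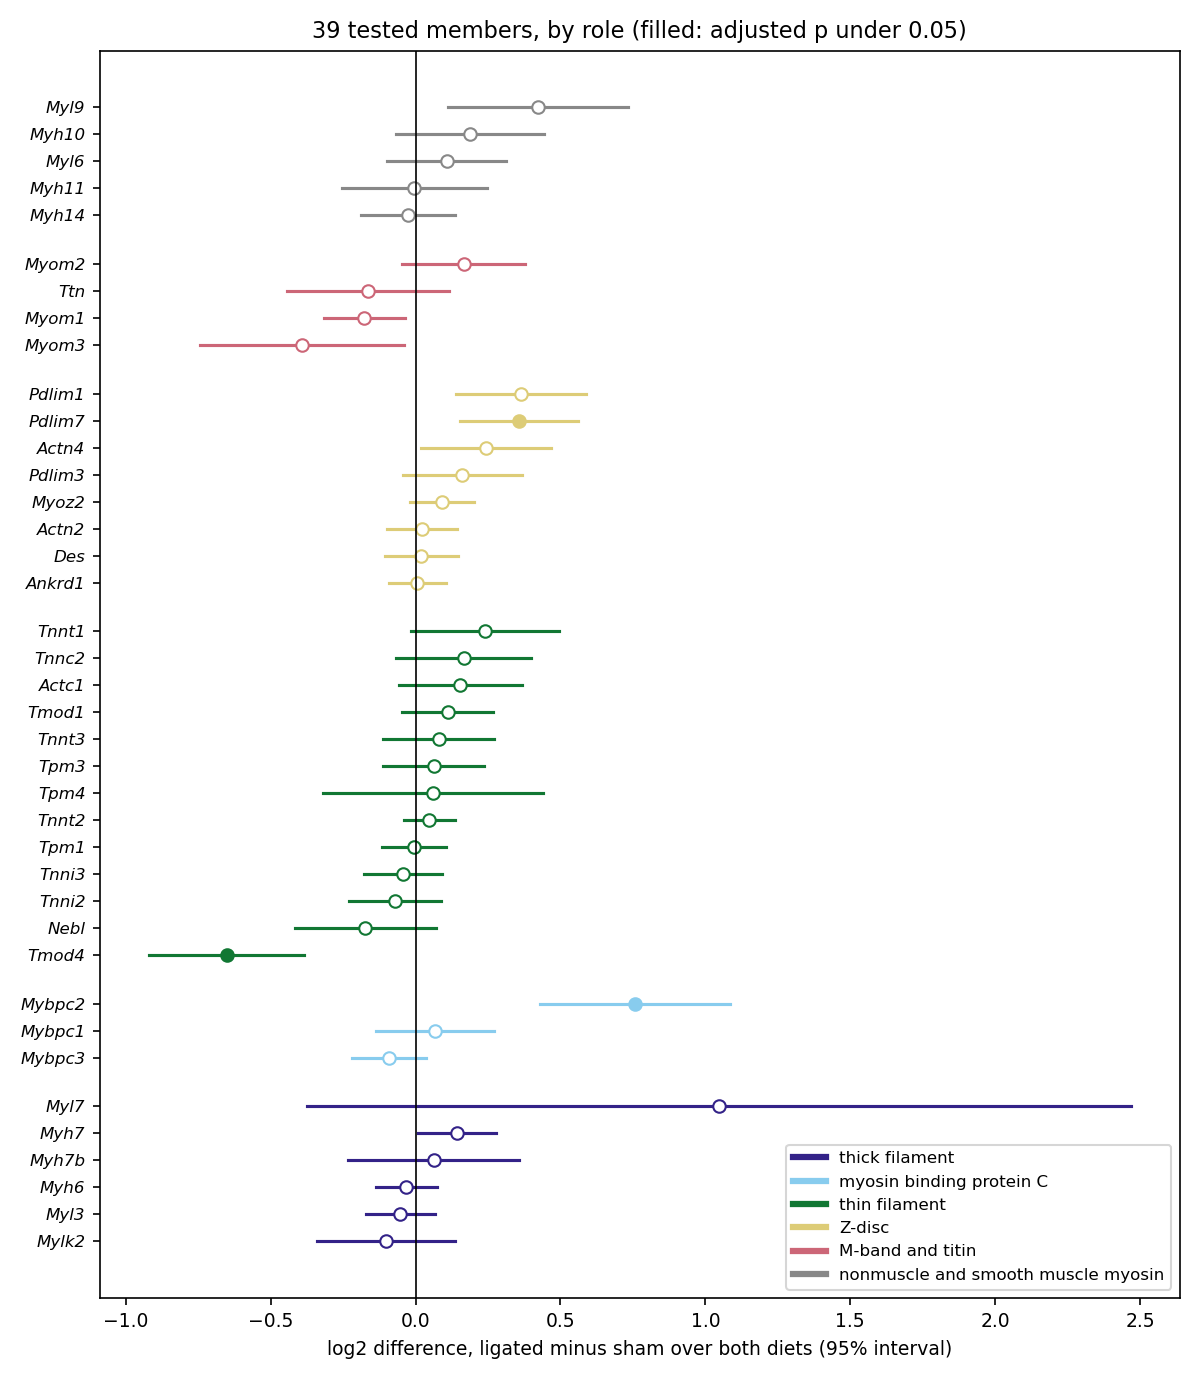
Difference after ligation over both diets on the log2 scale with its 95% interval for each of 39 tested members, grouped by role; filled points have an adjusted p under 0.05. All 8 Z-disc members lie above 0 on these quantile-normalized values (4 of 8 under median scaling), where 46.1% of all genes do (49% under median scaling). Of the M-band and titin members 3 of 4 lie below 0. The filled points are Tmod4, Mybpc2 and Pdlim7, beside 3.14% of all genes called. Mylk2, a light chain kinase, is grouped with the thick filament.

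Diet moved no member past the test. Saturated fat against chow called 0 of 39 members in sham hearts (0.0192% of all genes), 0 in ligated hearts (0.00962%) and 0 over both surgeries (0.0577%) in limma's fit. At an unadjusted p under 0.05 there were 2 members lower in sham hearts, 0 in ligated hearts and 1 lower over both surgeries, beside 5.97%, 9.64% and 9.22% of all genes. The interaction of ligation and diet called 0 members and 0% of all genes, with 0 members at an unadjusted p under 0.05 beside 5.42% of all genes. Myh7 had the smallest p over both surgeries, at -0.19 (SE 0.066, adjusted p = 0.50), and was lower on saturated fat by 0.21 in sham hearts (adjusted p = 0.795) and 0.17 in ligated hearts (adjusted p = 0.533). Other members with small p over both surgeries were Nebl, at -0.23 (adjusted p = 0.544), and Tnni3, at -0.12 (adjusted p = 0.551). Nebl and Tnni3 also read higher on low-background arrays, by 0.478 and 0.215. High-background arrays were 2 sham and 2 ligated on chow but 3 sham and 5 ligated on saturated fat. Diet and batch are thus partly confounded in these values. Myom2 had the smallest p in the interaction, at 0.40 (SE 0.21, adjusted p = 0.878).

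The 12 members that did not pass the filter were detected on 0 to 3 arrays each. They include the skeletal heavy chains Myh1, Myh3, Myh4 and Myh13, the fast alpha-actinin Actn3, and Tnni1, the slow skeletal and fetal troponin I, detected on 3 arrays with medians of 5.65 to 5.76 in the 4 groups. The probe that the file names Myl2 was detected on 1 array. Its accession belongs to Myl11, a fast skeletal light chain, in current RefSeq, so no value here stands for the ventricular Myl2. The genes Tnnc1, Pdlim5, Myl1, Myl12b and Tnni3k are on the array under older symbols and fell outside the rule. None was called over both diets: Tnnc1, cardiac troponin C, differed by 0.063 (adjusted p = 0.747), Pdlim5 by 0.36 (adjusted p = 0.166) and Myl1 by 0.38 (adjusted p = 0.141).

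Other genes of the sarcomere, listed outside the rule, numbered 39, of which 28 were on the array and 27 were tested. Over both diets 6 were called higher (3 under median scaling) and 0 lower, beside 3.14% of all genes called in either direction. The median difference was 0.0332, against -0.0119 over all genes. Acta1, skeletal alpha-actin and part of the fetal gene programme, gave 12.97 to 15.07 in sham and 14.17 to 15.62 in ligated hearts, and rose by 1.12 (SE 0.19, adjusted p = 0.00112). Csrp2, a LIM domain protein of smooth muscle and developing tissue, rose by 1.40 (SE 0.21, adjusted p = 0.000299). The Z-disc genes Myot, Sorbs2, Smpx and Ankrd23 rose by 0.70, 0.52, 0.34 and 0.79 (adjusted p 0.0124, 0.00927, 0.0184 and 0.00713), though Ankrd23 was detected on 8 arrays only.

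Markers of other cells moved with ligation too. Over both diets 11 of 11 fibroblast markers tested lay higher and 3 were called, 7 of 7 macrophage markers lay higher with 3 called, and 5 of 5 endothelial markers lay higher with 1 called (Vwf, at 0.32, adjusted p = 0.034). These directions held under median scaling, where 2, 0 and 0 were called. Beside these lists, 3.14% of all genes were called and 46.1% lay higher in the main fit over both diets. The summed normalized intensity of the fibroblast list ran from 53000 to 82700 in sham and from 60200 to 99700 in ligated hearts. The endothelial list ran from 5190 to 7860 in sham and from 6520 to 9030 in ligated hearts. The smooth muscle and pericyte list ran from 3040 to 4150 in sham and from 3350 to 4180 in ligated hearts, with 5 of 6 higher and 0 called. Of 8 cardiomyocyte markers tested beyond those 3, 0 lay higher and Hrc, a calcium-binding protein of the sarcoplasmic reticulum, was called lower, by 0.35 (adjusted p = 0.0251 in limma). The summed level of that list was 238000 to 267000 in sham and 228000 to 261000 in ligated hearts. Pln, Ckm, Mb, Fabp3 and Cox6a2, which make up most of that sum, read 15.12 or more in all 24 hearts. That is near the level of the 7 members set apart. Whether signals near the top of the scale held down differences in this list was not tested. Of 9 skeletal muscle markers only 2 were tested, and Pvalb, Myog, Myod1 and Mstn were not detected on enough arrays. The part of these cell types in the values of Tmod4, Mybpc2 and Pdlim7 was not tested.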

How the data were processed

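Left ventricular RNA of 24 rats was hybridised to an Illumina rat bead array with 50-base probes and a Cy3 label, 1 array per rat. Per the submitters' processing notes BeadStudio 3 was used, and the values deposited by the authors are probe intensity values on a linear scale; each comes with a detection p-value per the file headers. A second deposited table holds intensity values normalized by the authors, by a method not given in the sources used here, and served as an alternative.

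Signals were background-corrected with neqc (offset 16, negative controls inferred from detection p-values), then quantile normalized on a log2 scale in R 4.3.3 with limma 3.58.1. Probes with a detection p-value under 0.05 on at least 6 arrays were kept (10540 of 22517). The brightest probe stood for a gene, which left 10391 genes. One limma model held the 4 group means (20 residual degrees of freedom). A call needed an adjusted p under 0.05, by Benjamini-Hochberg over all genes of that comparison. There were 7 comparisons, of which several share animals. No count of molecules underlies an intensity, so the number of arrays limits the precision. Rats are separate animals, and the code was tested on simulated data.

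Probes were named through accession, symbol or synonym in RefSeq, and 10185 kept the name in the file. Members were matched by the symbol in the file. Members, gene lists and tests were chosen with earlier results of these data known. Members named in the text are those called, the 3 with the smallest p in each comparison, those next to the level of Myh7, and a fixed list of main cardiac members; other names were chosen after their values were seen. The ratio of Myh7 to Myh6 was computed from deposited signals and tested by exact permutation within diet. Alternatives covered background correction, normalization, the filter on dim probes, the background batch, the variance model, array weights, the arrays fitted, an index of circadian clock genes as a covariate and each animal left out. Sequences were read from RefSeq windows (GRCr8), and motifs were searched on both strands. Probe sequences were not used here. The window of Tmod4 is not reported here.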

Additional observations from a re-analysis of the deposited data

Results flagged for a closer look

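In 92 groups of 6 rats, covering the 23 tested members named by rule in the 4 groups, the highest or the lowest value stood apart from the rest 9 times by Dixon's criterion (a gap over 0.625 of the group's range). Chance gives about 1 in 20 groups. Mybpc2 in sham animal 15 on chow read 8.17, with the next value at 7.38. Pdlim7 in ligated animal 28 on saturated fat read 10.85, with the next at 10.26. Myom1 in sham animal 34 on saturated fat read 11.23, with the next at 10.90. In ligated animal 4 on chow Mybpc3 was low at 13.56 and Tmod1 high at 14.18. Ttn was low at 10.06 in ligated animal 5 on saturated fat. The other 3 concern members set apart at the top of the scale, all on high-background arrays: Ankrd1 at 15.57 in ligated animal 25 on saturated fat, and Tnni3 at 15.58 and Myh7 at 15.63 in ligated animal 38 on chow.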

How the results depend on the processing

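The 3 calls over both diets and that of Tmod4 on saturated fat kept their direction under every alternative run and with each animal left out. On saturated fat, where 1 member was called, 0 were called under median scaling, with no filter, with the background batch as a block, within either batch and with the batch and the clock index together (an alternative added after the data were seen); 2 were called with array weights. Over both diets, where 3 were called, 0 were called under median scaling and within the high-background arrays. The shares of all genes called under these alternatives are not given here. Within the low-background arrays the 1 ligated fat rat is assumed to vary like the others, which limits that fit. With 1 animal left out the counts were 0 to 1 on chow, 0 to 2 on saturated fat and 2 to 3 over both diets. Under median scaling the adjusted p values over both diets were 0.131 for Tmod4, 0.0961 for Mybpc2 and 0.478 for Pdlim7. Pdlim7 also missed without the filter (0.0749). Tmod4 on saturated fat gave an adjusted p of 0.138 with the clock index. Calls gained were Pdlim1 with the clock index (0.38 over both diets, adjusted p = 0.0262; 0.72 on saturated fat, adjusted p = 0.0299), and with array weights Myom1 over both diets (-0.20, adjusted p = 0.0425) and Mybpc2 on saturated fat (0.93, adjusted p = 0.0127). Of 157 uncalled pairs of member and comparison examined, 95 changed sign under at least 1 alternative, in 169 of 1975 values, and these 4 were gained; leaving out 1 animal gained 3. The log2 ratio of Myh7 to Myh6 was higher by 0.0364 within the high-background arrays, where both probes read near the top of the scale, by 0.346 from normalized values (exact p = 0.0536), by 0.622 with background subtracted, and by 0.417 to 0.73 with 1 rat left out (exact p 0.00476 to 0.0762). The causes of these shifts were not tested. No paired analysis was possible because each rat has a number of its own. On high-background arrays the 7 brightest members read near the top of the scale, and whether that held down their differences was not tested.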

Other observations

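Several skeletal muscle isoforms were among the tested members. Tmod4 and Mybpc2 were called after ligation over both diets, and their cardiac relatives Tmod1 and Mybpc3 differed by 0.11 and -0.09 without passing the test. The fast skeletal Tnnc2, Tnni2 and Tnnt3 differed by 0.17, -0.07 and 0.08, the slow Tnnt1 by 0.24 and the skeletal light chain kinase Mylk2 by -0.10, and none of these passed (adjusted p 0.362 to 0.768). Mybpc1, the slow skeletal form, was detected on 8 arrays and differed by 0.07 (adjusted p = 0.829). Acta1, the skeletal alpha-actin, rose by 1.12, while Actc1, the cardiac alpha-actin, differed by 0.15 (adjusted p = 0.525) on a probe of low level, described below. Whether the differences within these pairs are themselves different was not tested.

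The probe named Actc1 gave a mean log2 intensity of 8.88 as deposited and ranked 4481 among all probes, although Actc1 is known as the main actin of adult heart.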
